A study of Mus musculus with 4 samples.

Results

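Integrin subunit genes expressed by aortic smooth muscle cells were examined: Itga1, Itga5, Itga7, Itga8, Itga9 and Itgav, which encode alpha subunits, and Itgb1, Itgb3 and Itgb5, which encode beta subunits. They were taken by gene symbol and make up 9 of the 32287 features of the count matrices. The study sequenced single GFP+ smooth muscle cells, sorted from cold-digested ascending aorta and aortic arch, with 10x Chromium 3ʹ chemistry v3.1. The KO group, named Tgfbr1/2iSMCKO, has 2 libraries from mice with floxed alleles Tgfbr1f/f and Tgfbr2f/f, the type I and type II TGF-β receptor genes. The WT group, named GFPiSMC, has 2 libraries from mice without these alleles, and both groups carried Myh11-CreERT2 and mT/mG. All mice were C57BL/6J, received tamoxifen by intraperitoneal injection on 5 days and were studied at 12 weeks of age. The labels give a daily dose of 1 mg when tamoxifen was given at 4 weeks of age and 2 mg at 11 weeks, without saying which course a library had. Cre is made in cells that use the Myh11 promoter, and the reporter mT/mG changes from tdTomato to GFP where Cre has recombined it, so the sort selects for recombination of the reporter and not of the receptors. The series title places the comparison in a question about TGF-β and matrix production by the adult aorta.

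Integrins are cell surface receptors made of 1 alpha and 1 beta subunit, which hold cells to the extracellular matrix and connect it to the actin cytoskeleton. The beta1 chain pairs with many alpha chains: α1β1 binds collagens, α5β1 binds fibronectin, α7β1 binds laminins, α8β1 binds nephronectin and other RGD-bearing proteins, and α9β1 binds tenascin-C. The alpha v chain pairs with beta1, beta3 or beta5 to bind vitronectin, fibronectin and other RGD proteins, and integrins with alpha v can also release active TGF-β from its latent complex in the matrix.

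Barcodes entered the tests as cells if they had 1000 or more UMIs (unique molecular identifiers, counts of captured mRNA molecules), 500 or more genes, and a mitochondrial share of UMIs of 10% or less. That left 4252 and 3522 cells in KO and 2429 and 3265 in WT, with 50605349 to 59203071 UMIs in KO and 35255748 to 49723949 UMIs in WT. The median cell held 13898 and 14399 UMIs in KO, against 14768 and 15383 in WT. Tgfbr1 stood at 73.3 and 76.1 CPM (UMIs per 1000000 UMIs of the library) in KO, against 80.8 and 82.3 CPM in WT, and Tgfbr2 at 46.5 and 47.3 CPM in KO, against 51.6 and 45.1 CPM in WT. A 3′ tag outside the deleted part checks nothing about a deletion, and which exons are floxed is not stated. The cells carried smooth muscle markers, with Myh11 at 7192 and 7026 CPM in KO and 5206 and 5415 CPM in WT. The 12 smooth muscle markers summed to 70909 and 65993 CPM in KO, against 59294 and 61813 CPM in WT. Fibroblast markers were also higher in sum, 597 and 589 CPM in KO against 540 and 547 CPM in WT, with 6 of 11 tested markers called higher, against 9.17% of all tested genes. Of the endothelial markers 6 of 9 tested were called higher and 2 lower, while their sum was lower, 50.9 and 48.5 CPM in KO against 56.8 and 58.0 CPM in WT. Markers of macrophages summed to 13.9 and 2.22 CPM in KO and 2.24 and 1.91 CPM in WT, and the leukocyte gene Ptprc had 4 and 0 UMIs in KO and none in WT. A cluster of 9 cells carried endothelial markers such as Cdh5 and Vwf, and all 9 came from KO. Any 2 libraries shared 2 to 5 cell barcodes among the kept cells. Per the labels, cells came from individual segments of aorta, with no mouse named for a library, so p-values measure only the spread between these libraries.

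UMIs were added up per library and compared with edgeR's quasi-likelihood test, with p-values adjusted over 14474 tested genes by the Benjamini-Hochberg method; a gene was called at an adjusted p under 0.05. Because 1 UMI stands for 1 captured 3′ end, levels were not divided by transcript length, and levels of different genes are set side by side only on this scale. In KO cells Itgb1 had the highest level, 1608 CPM, ahead of Itga8 with 1176 CPM, and the order ran on through Itga1, Itga9, Itgb5, Itga5, Itgav and Itga7 to Itgb3 at 39.8 CPM. No neighbours in the KO order overlapped between libraries. In WT cells Itga8, with a mean of 1728 CPM, and Itgb1, with 1716 CPM, overlapped, followed by Itga9, Itgb5, Itga1 and Itga5. The 3 lowest in WT were Itga7, Itgav and Itgb3 at 81.2, 77.2 and 76.4 CPM, of which neighbours overlapped. Itga5, the sixth gene of each order, lay close to Itgb5 in KO (135 and 147 CPM) and far from it in WT (105 and 298.5 CPM).

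Of the 9 members, 6 fell in KO, 1 rose and 2 did not pass the test. The members were chosen with earlier results of these data known. These counts therefore describe the members and do not test them against other genes. Of all tested genes 11.1% were called lower, 9.17% higher and 20.3% in either direction. All 9 members had libraries that did not overlap, 8 lower and 1 higher in KO, as had 63.5% of all tested genes. Itgb5, Itgb3 and Itga7 were called and at least 1.5-fold lower, which held for 5.22% of all tested genes and for 4.82% of those with a mean of at least 20 CPM. All members lie above a mean of 20 CPM, and among the 5743 tested genes above that level 15.3% were called lower, 9.3% higher, 24.6% in either direction, and 68.0% had libraries that did not overlap. The median log2 change of KO over WT was −0.56 over the members and −0.00 over all tested genes.

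**Figure D1:**
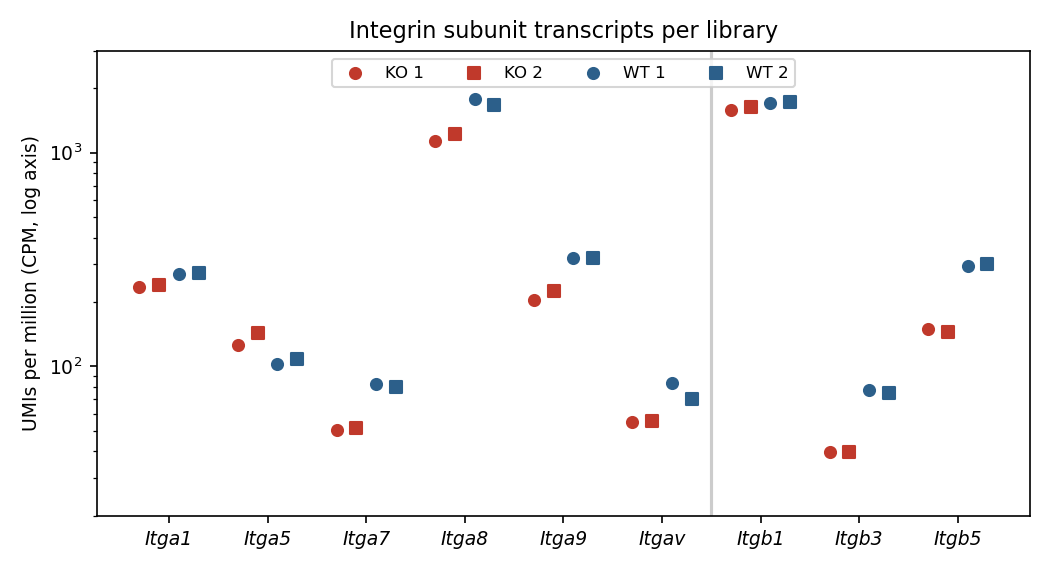
Level of each integrin subunit gene in CPM (log axis) in each library, KO in red and WT in blue, with circles for replicate 1 and squares for replicate 2. Itgb5 and Itgb3 show the widest gaps, with both KO points below both WT points, and Itga5 is the gene with its KO points above.

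Among the 9 members the widest differences were those of Itgb5 and Itgb3, whose beta chains pair with alpha v. Itgb5 had 149.7 and 145 CPM in KO, against 295 and 302 CPM in WT. Its KO level was 49.4% of the WT level, with 147 ± 3.29 CPM in KO and 298.5 ± 4.72 CPM in WT (SD, n = 2 each), and the fall of 1.02 on the log2 scale (SE 0.06) passed the test at an adjusted p of 3.33e-05. Itgb3, which encodes the beta3 chain that platelets and osteoclasts also use, had 39.7 and 39.8 CPM in KO, against 77.9 and 74.9 CPM in WT. It fell by 0.94 on the log2 scale (SE 0.07, adjusted p 7.47e-05), to 52.1% of WT. For both genes the distance between KO and WT was many times the distance between libraries of 1 genotype. Their shared partner Itgav had 54.8 and 55.4 CPM in KO, against 83.8 and 70.6 CPM in WT, and the WT libraries lay further apart than those of KO. It fell by 0.48 on the log2 scale (SE 0.09, adjusted p 0.00703).

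The sequences around the start sites of the gene with the largest fall, of the most abundant alpha chain, which also fell, and of the only member that rose are shown so that they can be read side by side. Each runs 5′ to 3′ on the gene's own strand, from 250 bases before the RefSeq start site to 50 after it, on GRCm38.p6 (RefSeq), and capitals mark matches to the SMAD-binding motif CAGAC, the AP-1 site TGANTCA, the TEAD site CATTCC or the CArG box, each on both strands. Itgb5 is read from chr16:33829415-33829714 on the plus strand, Itga8 from chr2:12301895-12302194 and Itga5 from chr15:103366742-103367041, both on the minus strand.
Itgb5: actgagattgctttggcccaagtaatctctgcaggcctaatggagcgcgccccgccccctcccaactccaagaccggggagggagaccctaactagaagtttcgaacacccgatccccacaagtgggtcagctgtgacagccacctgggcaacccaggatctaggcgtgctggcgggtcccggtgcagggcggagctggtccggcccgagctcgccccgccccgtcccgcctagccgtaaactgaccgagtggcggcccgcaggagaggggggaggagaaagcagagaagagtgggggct
Itga8: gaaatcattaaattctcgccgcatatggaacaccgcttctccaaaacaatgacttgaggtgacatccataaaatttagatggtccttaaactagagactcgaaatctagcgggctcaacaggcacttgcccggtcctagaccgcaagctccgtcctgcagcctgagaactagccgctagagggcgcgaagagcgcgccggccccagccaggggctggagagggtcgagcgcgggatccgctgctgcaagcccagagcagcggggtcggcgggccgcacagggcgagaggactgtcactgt
Itga5: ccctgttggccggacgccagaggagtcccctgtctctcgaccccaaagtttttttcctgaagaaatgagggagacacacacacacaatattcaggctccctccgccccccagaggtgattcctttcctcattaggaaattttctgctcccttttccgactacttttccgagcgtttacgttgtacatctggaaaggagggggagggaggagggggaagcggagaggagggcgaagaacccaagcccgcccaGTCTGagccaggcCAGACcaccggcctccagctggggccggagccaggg
The windows of Itgb5 and Itga8 held none of the 4 motifs, and that of Itga5 held 2 matches to CAGAC, which do not overlap. RefSeq gave a promoter for 7 of the 9 members, all but Itga7 and Itgb3. The window of Itga9 lies 105002 bases from the start of the gene in GENCODE M21, inside the annotated gene, and the other 6 lie 0 to 28 bases from it. A CAGAC stood in 4 of the 7, while 49.6% of 32851 mouse promoters of this length hold one. TGANTCA was found in 1 of the 7, that of Itga9, which is also among the 4 with CAGAC (in all promoters the share with the AP-1 site is 7.81%). The TEAD site was found in 1 of the 7 (14.7%) and a CArG box in none (1.63%). These matches describe letters only. In GENCODE M21 on GRCm38 the members are protein-coding genes spread over the genome, among them Itgb5 (chromosome 16, 33829665 to 33949338, plus strand), Itgb3 (chromosome 11, 104608000 to 104670476, plus strand), Itgav (chromosome 2, 83724397 to 83806916, plus strand) and Itga5 (chromosome 15, 103344286 to 103366763, minus strand).

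Among the alpha chains of beta1 integrins, Itga7, Itga8 and Itga9 fell. Itga8 is the mesenchymal alpha chain of the nephronectin receptor and supplied most of the alpha transcripts. It had 1130.5 and 1222 CPM in KO, against 1785 and 1672 CPM in WT, and fell by 0.56 on the log2 scale (SE 0.06, adjusted p 0.000801). Itga9 had 205 and 224 CPM in KO, against 321 and 323 CPM in WT, a fall of 0.58 (log2, SE 0.07, adjusted p 0.000795). Itga7, the laminin-binding chain known from striated and smooth muscle, had 50.4 and 51.2 CPM in KO, against 82.8 and 79.6 CPM in WT, a fall of 0.68 (log2, SE 0.07, adjusted p 0.000348). In all 3 genes the genotypes did not overlap, and libraries of 1 genotype lay closer to each other than to those of the other genotype. Itga9 (chromosome 9, 118606690 to 118901003, plus strand) is the only member near a floxed gene, 2.43 Mb from Tgfbr2, and no member lies on the chromosome of Tgfbr1. The antisense RNA Gm2415 overlaps Itga9 on the opposite strand without shared exons. Its level was low, 1.41 and 1.54 CPM in KO, against 12.8 and 12.0 CPM in WT. It fell by 3.07 (log2, SE 0.13, adjusted p 5.85e-06), and a link to the fall of Itga9 was not tested. Itga8 (chromosome 2, 12106632 to 12301922, minus strand) shares exons with the antisense RNA E030013I19Rik. That RNA had 120 and 142 CPM in KO, against 268 and 250.2 CPM in WT, and fell by 0.98 (log2, SE 0.09, adjusted p 0.000246). The strand setting of the counting is not given in the sources used here, so the share of either gene in the other's count was not tested.

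Itga5, the alpha chain of the classic fibronectin receptor, was the only member that rose. It had 126 and 143 CPM in KO, against 103 and 108 CPM in WT, so the genotypes did not overlap, and the KO libraries lay further apart than the WT libraries. The rise was 0.36 on the log2 scale (SE 0.08, adjusted p 0.0153), to 128% of WT, and it no longer passed without KO 2 (0.26, adjusted p 0.0525) or without WT 1 (0.31, adjusted p 0.0739). The common beta chain did not pass the test: Itgb1 had 1576.5 and 1640 CPM in KO, against 1707 and 1725 CPM in WT, a log2 change of −0.09 (SE 0.05, adjusted p 0.253). Nor did Itga1, a collagen receptor chain common in smooth muscle, with 235 and 241 CPM in KO against 269 and 274 CPM in WT (log2 change −0.19, SE 0.06, adjusted p 0.0567). With DESeq2, with limma-voom or with only genes above 20 CPM tested, Itga1 passed, at adjusted p-values of 0.0466, 0.0485 and 0.0475. In the annotation Itga1 shares exons with Gm49395 on the same strand.

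The 9 endothelial-like cells held 7 of the 14862 Itga5 UMIs of KO (0.0471%) and 6 of the 16352 Itgb5 UMIs (0.0367%). When cells with at least 2 markers of another type were left out, the log2 changes were 0.39 for Itga5, −1.01 for Itgb5, −0.88 for Itgb3, −0.56 for Itga8, −0.56 for Itga9, −0.65 for Itga7 and −0.49 for Itgav, and all 7 still passed. Without the 2 clusters of low UMI count, which include the macrophage transcripts, and the endothelial-like cells, Itgb5 changed by −1.02 and Itga5 by 0.35 (log2, adjusted p 2.58e-05 and 0.0145).

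**Figure D2:**
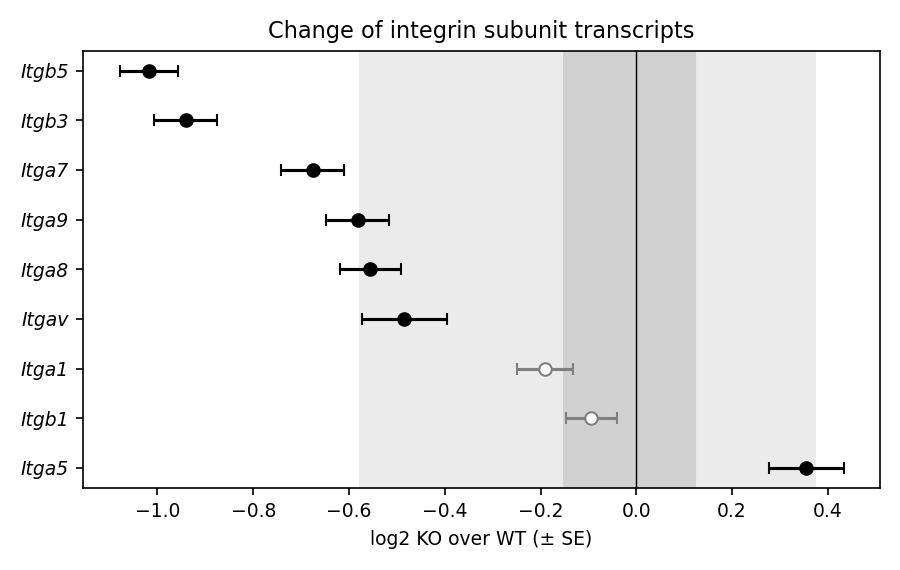
Log2 change of KO over WT for each member with its SE; filled points passed the test at an adjusted p under 0.05 and open points did not. The light band spans the 5th to 95th percentile (−0.58 to 0.37) and the dark band the 25th to 75th (−0.15 to 0.12) of the changes of 5743 genes above 20 CPM; Itgb5, Itgb3, Itga7 and Itga9 lie left of the light band.

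The makeup of the pool of member transcripts also differed, and shares within a library do not depend on how libraries are scaled. All 9 members summed to 3568 and 3762 CPM in KO, against 4724 and 4628 CPM in WT. The 6 alpha genes gave 1870 ± 95.1 CPM in KO and 2586 ± 83.2 CPM in WT, and the 3 beta genes 1795 ± 41.7 CPM in KO and 2091 ± 15.2 CPM in WT (SD, n = 2 each). Among the 9 members there were 1.02 and 1.06 alpha UMIs for each beta UMI in KO, against 1.27 and 1.20 in WT. UMIs of different genes are not counts of chains. Subunits outside the members are not in these sums, such as Itga3 with 69.0 and 63.6 CPM in KO, against 65.5 and 57.0 CPM in WT. Among beta UMIs, Itgb5 made up 8.48% and 7.95% in KO, against 14.2% and 14.4% in WT, and Itgb3 made up 2.25% and 2.18% in KO, against 3.74% and 3.56% in WT. Itgb1 accounted for 89.3% and 89.9% of beta UMIs in KO, against 82.1% in each WT library. Among alpha UMIs, Itga5 took 7.01% and 7.38% in KO, against 3.88% and 4.27% in WT, and Itga1 took 13.0% and 12.5% in KO, against 10.2% and 10.8% in WT. Itga8 made up 62.7% and 63.1% in KO, against 67.5% and 66.2% in WT, and the share of Itgav overlapped between the genotypes (3.04% and 2.86% in KO, against 3.17% and 2.79% in WT). With 2 libraries against 2, an exact two-sided permutation test cannot give a p below 0.333, which it gave for every share but that of Itgav (p = 1, exact permutation).

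**Figure D3:**
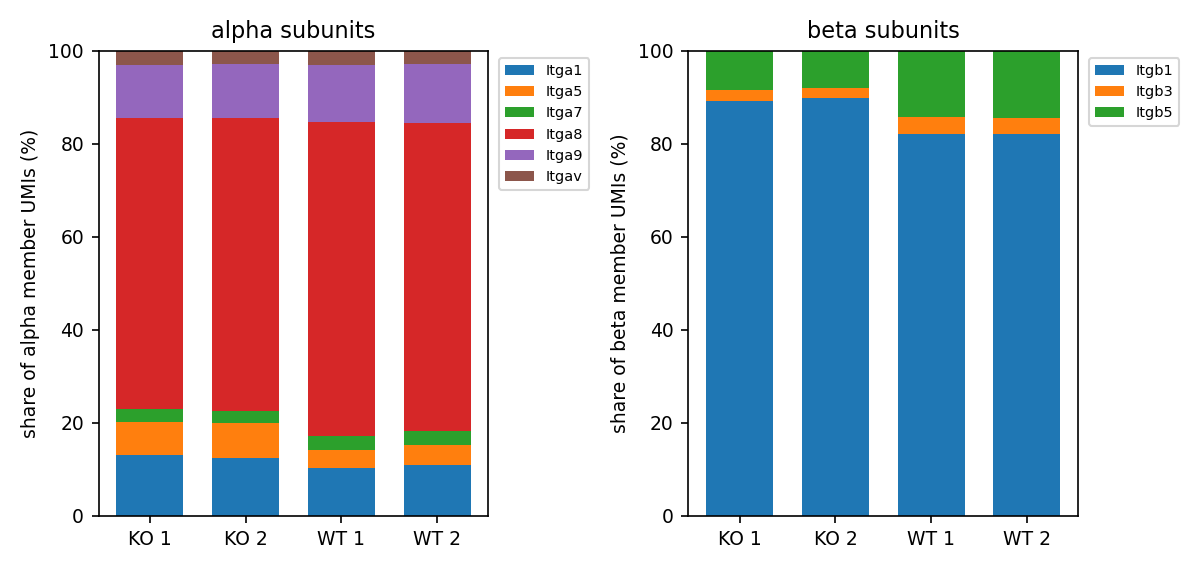
Share of each alpha member among alpha UMIs (left) and of each beta member among beta UMIs (right), in percent, for KO 1, KO 2, WT 1 and WT 2. The green Itgb5 segment is about 8% in the KO bars and 14% in the WT bars, and the orange Itga5 segment is wider in the KO bars.

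The share of cells in which a transcript was found was counted after each cell had been thinned to 5000 UMIs, which left 4102 and 3353 KO cells and 2232 and 3103 WT cells and dropped 150 and 169 KO cells and 197 and 162 WT cells. Itgb5 was found in 53.4% and 52.1% of KO cells, against 76.2% and 76.1% of WT cells (unthinned, 83.3% and 82.7% in KO and 92.6% and 94.9% in WT). Itgb3 was found in 18.0% and 17.7% of KO cells, against 31.1% and 29.7% of WT cells (unthinned, 40.6% in each KO library and 60.5% and 61.6% in WT). Both were found in a smaller share of cells in each KO library than in either WT library. The share with Itga7 was 22.1% and 22.0% in KO, against 33.5% and 32.3% in WT, and that with Itga9 was 60.8% and 64.3% in KO, against 74.9% and 75.7% in WT. Itgav was found in 23.6% of the cells of each KO library, against 34.2% and 29.6% in WT, and Itga5 in 38.0% and 39.1% in KO, against 30.8% and 32.6% in WT. Itga8 and Itgb1 were found in nearly every cell of both genotypes (98.3% to 99.8%), so their shares carry little information; the median thinned cell held 5 and 6 Itga8 UMIs in KO and 8 in each WT library. Itgb2, the leukocyte beta chain that smooth muscle should lack, was found in 1 of 4102 and 1 of 3353 KO cells. In WT it was in 0 of 2232 cells, which allows a share of up to 0.134% (3 cells of the total), and in 0 of 3103 cells, which allows up to 0.0967%. A KO cell held 4.78 and 4.83 of the 9 members on average, against 5.49 and 5.45 in WT, and the median was 5 in every library. All 9 members were found together in 2 and 0 of these thinned KO cells, against 13 and 21 thinned WT cells. Unthinned, all 9 were found in 6.04% and 6.73% of KO cells, against 17.95% and 17.92% of WT cells. The unthinned mean was 6.57 and 6.62 members in KO, against 7.14 and 7.22 in WT, with a median of 7 in every library. Intervals and floors on these shares cover counting error only, and the permutation test could again not give a p below 0.333.

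An integrin needs both chains in the same cell, so 8 alpha-beta pairs known to form receptors were counted cell by cell. Itgav and Itgb5 were found together in 12.7% and 12.5% of KO cells, against 26.5% and 23.4% of WT cells. Itgav and Itgb3 met in 4.24% and 4.06% of KO cells, against 11.6% and 8.44% of WT cells. Each of these was close to the product of the single shares, which for Itgav and Itgb5 was 12.6% and 12.3% in KO and 26.1% and 22.5% in WT. The ratio of observed to product for Itgav and Itgb5 was 1.00 and 1.02 in KO, against 1.02 and 1.04 in WT. For Itgav and Itgb3 it was 0.998 and 0.969 in KO, against 1.08 and 0.959 in WT, so the WT libraries lay on both sides of 1. The other 6 pairs include Itgb1, which was found in nearly every cell, so their ratio is fixed near 1 and their share follows that of the alpha gene. Among cells with Itgav, 53.6% and 53.0% also had Itgb5 in KO, against 77.5% and 79.1% in WT, and among cells without Itgav the shares were 53.3% and 51.8% in KO and 75.5% and 74.9% in WT. Either Itgb3 or Itgb5 was found in 62.8% and 60.6% of Itgav-positive KO cells, against 83.6% and 85.7% of Itgav-positive WT cells. Both were found in 8.67% and 9.60% of these cells in KO, against 27.6% and 21.9% in WT. Cells without Itgav had similar shares. Either gene was found in 62.0% and 60.7% of them in KO, against 82.9% and 82.8% in WT. Both were found in 9.29% and 8.98% of them in KO, against 22.3% in each WT library. Itgb1 was found in at least 99.5% of the Itgav-positive cells of every library.

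**Figure D4:**
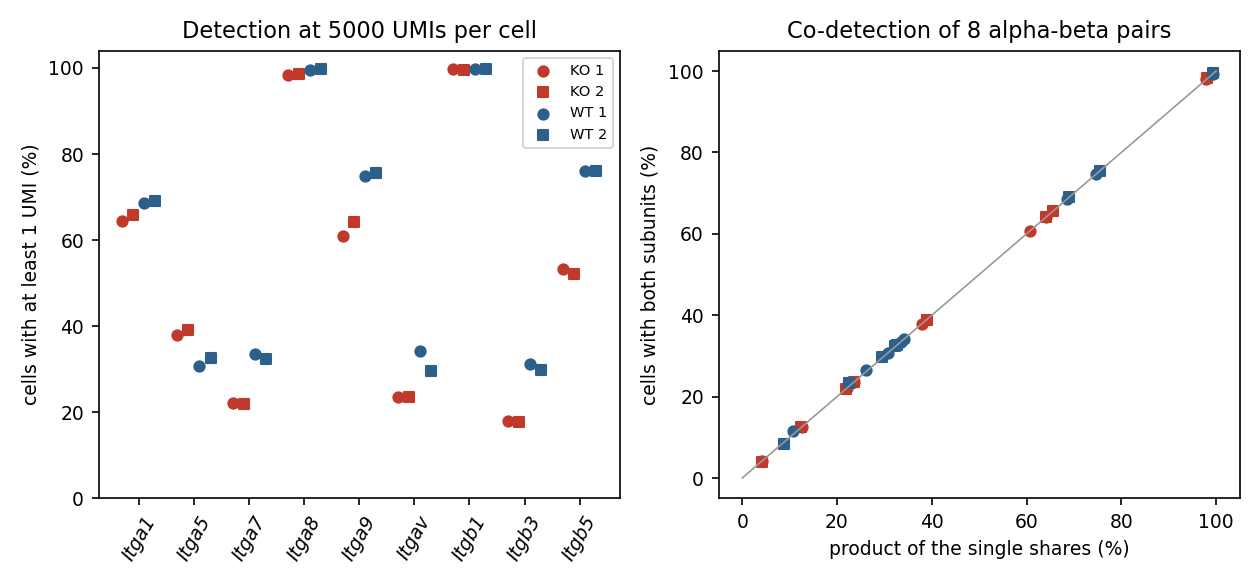
Left, percent of cells (thinned to 5000 UMIs) with at least 1 UMI of each member in each library, KO in red and WT in blue. Right, percent of cells with both subunits of each of 8 alpha-beta pairs against the product of the single shares; the points lie near the line of equality, which for the 6 pairs with Itgb1 follows from its detection in nearly every cell.

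Cells were grouped into 10 clusters on counts centred within each library and without integrin genes, and 7 clusters with at least 50 cells in every library (13018 of 13468 cells) were described by number and leading genes. Itgb5 was lower in both KO libraries than in both WT libraries in 7 of 7 clusters, with log2 changes from −1.06 to −0.96. Its level hardly varied between clusters: it lay between 132 and 165 CPM in KO and between 270.1 and 330 CPM in WT. Itga8, Itga7 and Itga9 were also lower in 7 of 7 clusters, with log2 changes of −0.61 to −0.43, −0.77 to −0.43 and −0.86 to −0.48. Itgb3 and Itgav were lower without overlap in 6 of 7, with changes of −1.14 to −0.39 and −0.71 to −0.12. The cluster where these 2 genes overlapped is cluster 0 (610 cells, median of 3670.5 UMIs), which has few UMIs, carries macrophage transcripts such as C1qa beside smooth muscle markers, and stayed unnamed. Itgb1 was lower without overlap in 4 clusters and higher in 1, and Itga1 was lower in 5.

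Itga5 had a wide range of levels between clusters. In cluster 7, led by Adamtsl1, Dlx6, Hhip and Msx2, it was at 34.3 and 30.5 CPM in KO, against 32.1 and 27.3 CPM in WT. In cluster 5, led by Spon1, Fosb and Hspa1b, it was at 175 and 223 CPM in KO, against 149 and 158 CPM in WT. In cluster 6, led by Ifit1, Lum and Vcam1, the genotypes overlapped at 173 and 209.8 CPM in KO and 191 and 179.5 CPM in WT. KO was higher without overlap in 5 of 7 clusters and lower in none, and the change was largest, 0.67, in cluster 3, led by Acan, Phex and Pln, with 95.1 and 126 CPM in KO against 60.8 and 78.2 CPM in WT. Cluster 7, where Itga5 was lowest, had the highest Itga8 (1460.0 and 1629 CPM in KO, against 2207 and 2128 CPM in WT) and, in WT, the highest Itga9 (229 and 266 CPM in KO, against 446 and 453 CPM in WT). Clusters give a description with no test. Some of their leading genes are genes of stress response (Fosb, Hspa1b) or interferon response (Ifit1), and whether digestion raised them was not tested.

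**Figure D5:**
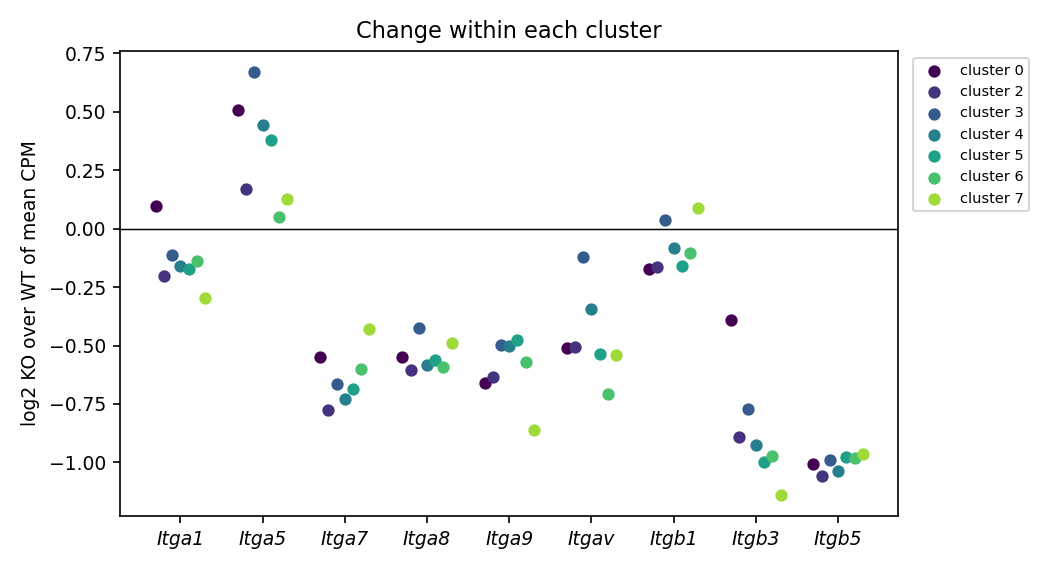
Log2 change of KO over WT of the mean CPM for each member within each of 7 clusters (colours). Itgb5 is tightly grouped between −1.06 and −0.96, all clusters of Itga7, Itga8, Itga9, Itgav and Itgb3 lie below 0, all of Itga5 lie above 0, and Itga1 and Itgb1 lie on both sides.

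The genes with the most similar pattern were found by Pearson's r of log2(CPM + 1) over 28 profiles, among 5743 genes. The profiles were 7 clusters in each of 4 libraries, centred within each library. They share libraries, so r is a description. Centring removes the difference between KO and WT, so r covers variation between clusters and does not measure a shared change with genotype. The genes most similar to Itga5 were Rnd3 (r = 0.92) and Aebp1, a collagen-binding matrix protein (0.90). Itga9 was nearest to Prkacb, a catalytic subunit of protein kinase A (0.91), and Antxr1 (0.90), and Itga8 to Rhoq and Kcnma1, a potassium channel (0.89 each). Itgb5 was nearest to Col3a1, a fibrillar collagen, and Foxp2 (0.78 each), Itgb3 to Lrrcc1 (0.77) and Parp8 (0.76), and Itgav to Smurf2, a ubiquitin ligase (0.75), and Anapc4 (0.68). Itga7 followed Adam33 (0.85) and Vmp1, Itgb1 followed 2900026A02Rik (0.78) and Rock2 (0.77), and Itga1 followed B3galnt2 (0.83) and Tes (0.82).

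Of the 17 other integrin subunit genes, 9 were expressed enough to be tested, and 1 was called, the only one higher and none lower. It was Itgb4, a hemidesmosome chain, with 31 and 25 UMIs in KO, against 7 and 11 in WT (log2 change 1.23, SE 0.36, adjusted p 0.0484). The call of Itgb4 was lost with DESeq2, with limma-voom, with stricter limits on cells, without cells with markers of other types, and without WT 1, WT 2 or KO 1. It was also lost with the replicate block and without the clusters of few UMIs or endothelial markers. Itga3, a laminin receptor chain, had 69.0 and 63.6 CPM in KO, against 65.5 and 57.0 CPM in WT, and did not pass (adjusted p 0.382). Itgb8, the beta chain of αvβ8, an activator of latent TGF-β, had 6.60 and 9.78 CPM in KO, against 11.3 and 9.97 CPM in WT, and did not pass (adjusted p 0.175). Itga10, a collagen receptor chain, had 18.6 and 21.1 CPM in KO, against 15.5 and 17.7 CPM in WT. Itga4 had 12.1 and 12.2 CPM in KO, against 13.6 and 12.9 CPM in WT. Itga2b stood at 2.66 and 2.76 CPM in KO, against 2.06 and 2.13 CPM in WT, and Itga2, Itga6 and Itga11 stayed under 2 CPM in all libraries. The leukocyte and epithelial genes Itgae, Itgam, Itgax, Itgb2, Itgb6 and Itgb7 had at most 14 UMIs in a library, and Itgal and Itgad had none, which allows up to 0.0505 and 0.0583 CPM in KO and 0.0860 and 0.0609 CPM in WT.

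Among 29 tested matrix ligands of integrins (32 listed), 18 fell, 3 rose and 8 did not pass, with a median log2 change of −0.44. Of all tested genes 11.1% were called lower and 9.17% higher. This list and those below were chosen with earlier results of these data known, so their counts are a description. Npnt, which encodes nephronectin, the ligand of α8β1, had 501 ± 2.29 CPM in KO and 928 ± 23.0 CPM in WT, a fall of 0.89 (log2, SE 0.06, adjusted p 4.43e-05). Fbln5, an elastic fibre protein with an RGD motif that integrins bind, had 95.3 ± 8.33 CPM in KO and 514 ± 23.9 CPM in WT, a fall of 2.43 (log2, SE 0.08, adjusted p 2.02e-06). Col3a1, Ccn1, a matricellular protein, and Col1a2 also fell (log2 changes −1.63, −1.71 and −0.99, adjusted p 2.98e-06, 3.40e-06 and 2.99e-05). The largest fall of the list was that of Ccn2, 2.56 (log2, SE 0.19, adjusted p 9.58e-05). Tgfb3 and Ccn3 rose by 0.52 and 0.39 (log2, adjusted p 0.0121 and 0.0159). The largest rise was that of Thbs1, a gene of low level with 15.8 CPM in KO and 3.69 CPM in WT (log2 change 2.10, SE 0.10, adjusted p 1.29e-05).

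Of 30 tested adaptors and activators, the proteins that link integrins to actin or activate them (31 listed), 7 fell, 3 rose and 20 did not pass, where 11.1% of all tested genes were called lower and 9.17% higher, with a median log2 change of 0.04. The 10 calls were 6 without WT 1 and 6 without KO 2. Actn1, an actin crosslinker of focal adhesions, had 890.5 ± 42.7 CPM in KO and 1426 ± 79.0 CPM in WT, a fall of 0.68 (log2, SE 0.06, adjusted p 0.000332). Tns1, Actn4, Zyx and Lims2 also fell (log2 changes −0.37, −0.33, −0.28 and −0.28), while Rap1b, a small GTPase that activates integrins, rose by 0.46 (log2, SE 0.06, adjusted p 0.00180) and Kank2 by 0.26. Of 16 membrane partners 3 rose, 2 fell and 11 did not pass, with a median log2 change of −0.01. Beside 20.3% called among all tested genes, these 5 calls, which were 3 without WT 2, are not read as a result about the list. Cd44, the hyaluronan receptor, had 37.7 ± 2.67 CPM in KO and 21.5 ± 1.76 CPM in WT (log2 change 0.81, SE 0.09, adjusted p 0.000669), and the tetraspanin Cd81 rose by 0.30 (log2, adjusted p 0.0125).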

How the data were processed

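UMI counts per gene and cell barcode were deposited by the authors as raw counts, and the file headers name Cell Ranger 5.0.1. The build mm10 and Seurat 4.0, with no role given, are named in the submitters' processing notes. The matrices hold 4504 and 3858 barcodes in KO and 2769 and 3565 in WT; the labels state 4376 and 3707 cells in KO and 2597 and 3420 in WT before filtering, and 4031 and 3246 in KO and 2151 and 3000 in WT after it. How those cells were filtered is not given in the sources used here; the report's own limits on UMIs, genes and mitochondrial share were applied instead.

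Counts were summed per library, scaled with TMM factors (0.9899 to 1.017) and fitted with edgeR 4.0.16 and its default expression filter (R 4.3.3); CPM values are on this scale. Adjusted p-values are from this fit unless another tool is named. The libraries of a genotype differed by more than counting error, with a chi-square of 16.0 (KO) and 14.2 (WT) per degree of freedom and a biological coefficient of variation of 7.84%. DESeq2 1.42.0 and limma-voom (limma 3.58.1) were alternatives. Scripts were tested on simulated data. Clustering used 2000 variable genes, 30 principal components, 15 neighbours and Leiden resolution 0.5 (scanpy 1.11.5, igraph 0.11.9, Python 3.11.15), and intervals were 95% Clopper-Pearson. No doublet was removed: Scrublet's own threshold marked 1 and 4 cells in KO and 23 and 7 in WT, too few to take as a working caller, and an alternative removed 145 and 99 KO cells and 47 and 85 WT cells by score.

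The members and gene lists were chosen with earlier results of these data known. Named genes were the members, the other subunits and the 2 most similar genes per member. The called genes above 20 CPM of each context list (at most 5 per direction by p) were also named. Markers, leading genes of clusters, Tgfbr1, Tgfbr2, E030013I19Rik, Gm2415, Eln, Ccn2 and Thbs1 were named beside these.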

Additional observations from a re-analysis of the deposited data

How the results depend on the processing

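Of 565 recomputed values under alternative settings, 534 were scored as unchanged. A count of genes had to stay within 1.5 times, and a co-detection ratio within 1 SD between replicates. Other values had to keep only their direction and side of the threshold. Shares of UMIs or cells and medians over clusters had no threshold to pass, so only their direction was scored. The values include the ratios of pairs with Itgb1, which are fixed near 1. The calls of Itgb5 (−1.04 to −0.99), Itgb3 (−0.97 to −0.88), Itga7 (−0.71 to −0.64), Itga8 (−0.61 to −0.50), Itga9 (−0.65 to −0.52) and Itgav (−0.61 to −0.36) held in all 15 alternatives for each gene. Itga5 ranged from 0.26 to 0.44 with a library left out. Itga1 passed with DESeq2 (−0.19, adjusted p 0.0466), limma-voom (−0.19, adjusted p 0.0485) and a filter at 20 CPM (−0.19, adjusted p 0.0475). The number of genes called was 2938, against 1543 with that filter (fewer genes tested), 2019 to 2428 with a library left out and 4085 with no filter. The call among the other integrin subunits (Itgb4) gave 0 called genes with DESeq2, limma-voom, the 20 CPM filter, cells of at least 5000 UMIs and at most 5% mitochondrial UMIs, cells without markers of other types, the replicate block and without the clusters of few UMIs or endothelial markers; with no filter it was 4, and with a library left out 0 to 1. The 20 CPM filter leaves Itgb4 out of the test, so it could not be called there. For the other settings the cause was not tested. Adaptors called were 6 to 9 with a library left out, membrane partners 3 to 4, and 2 with the 20 CPM filter. The alpha pool share of Itgav was −0.22 to 0.16 percentage points (KO minus WT) with a library left out. Unthinned, the shares of cells were higher in KO by 0.0269 percentage points for Itga8, 0.102 for Itgb1 and 0.145 for both together, against −1.13, −0.18 and −1.28 after thinning. Without centring, 1 cluster held enough cells, with a log2 change of 0.0600 for Itga1, against −0.16 as the median over the 7 clusters. The labels do not say whether the numbers 1 and 2 pair the libraries. Deviations of same-numbered libraries had a correlation of −0.00472 over 5743 genes, a single value that cannot decide a pairing. A fit with the replicate block called 3274 genes, gave −1.02 for Itgb5, and changed no call of a member. Leaving out clusters was chosen after seeing the data.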

Other observations

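Some KO cells held tdTomato UMIs, the reporter's colour before recombination: 120 cells in KO 1 and 60 in KO 2, against 1 and 2 cells in WT. Itgb5 in these cells, in CPM without TMM scaling and with 95% Poisson intervals that cover counting error only, stood at 146 (129 to 165) in KO 1, against 150.3 in KO 1 cells without tdTomato. In KO 2 it stood at 242 (212 to 275) in cells with tdTomato, against 146 in cells without. At this cut of 1 or more tdTomato UMIs the intervals of the KO libraries did not overlap. In cells with 5 or more tdTomato UMIs (52 in KO 1, 31 in KO 2) they did. There Itgb5 stood at 157.6 (131.1 to 187.9) in KO 1 and 201.2 (164.5 to 243.5) in KO 2. With 1 or more tdTomato UMIs, Itgb3 stood at 30.4 (22.9 to 39.5) in KO 1 and 39.4 (27.9 to 54.1) in KO 2, against 40.1 and 40.5 in cells without. Eln, which encodes elastin, was higher in the cells with tdTomato of both libraries, at 955 and 1382, against 313 and 217 in those without, and was at 2740 and 2764 in WT cells without tdTomato. Cells are not replicates, so no test was made, and sources of tdTomato UMIs such as free RNA or joined cells were not tested.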
